A study of Mus musculus with 4 samples.

Results

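The receptors and bridging proteins with which phagocytes take up dying cells were followed in single cells of irradiated and mock-treated tumors. The set held 10 listed genes, namely Mertk, Axl, Tyro3, Gas6, Pros1, Mfge8, Timd4, Stab1, Cd36 and Itgb5. All 10 were matched by symbol in each of the 4 libraries, among 18605 genes that the libraries shared. The tumors were subcutaneous grafts of LLC, a mouse Lewis lung carcinoma line, in C57/BL6N mice of 6 to 8 weeks. The radiation (RT) group received 3 fractions of 8 Gy (24 Gy in all) on days 7 to 9 after injection and was sampled 72 h later. It comprised 3 libraries of 1 tumor each, RT1, RT2 and RT3. The radiation naive (NT) group, given a mock treatment, was 1 library in which 3 tumors were pooled, so the spread between its tumors was not measured. No test between the groups was run, and each library is given its own value, with RT values always in the order RT1, RT2, RT3.

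Cells that die by apoptosis expose phosphatidylserine, and phagocytes clear them by efferocytosis. Some receptors, such as Timd4 and Stab1, bind this lipid directly. The TAM receptor tyrosine kinases Tyro3, Axl and Mertk need a bridge, Gas6 or protein S (Pros1), and integrins reach the lipid through Mfge8. In tumors, Mertk and Axl are known for dampening the inflammatory output of the macrophages that carry them.

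The libraries held 69667759 UMIs in NT, 78585759 in RT1, 108699844 in RT2 and 85660188 in RT3, where a UMI stands for 1 captured transcript. After filtering, 9976, 15029, 14993 and 15060 cells remained. Pairs of libraries had between 175 and 274 cell barcodes in common, at most 1.83% of a library. Cells were clustered without the uptake genes and named from marker genes. Tumor cells (Rhox5, Krt8, Krt18) were 81.3% of NT cells and 61.7%, 58.0% and 70.4% of RT cells. Macrophages (C1qa, Mrc1, Adgre1) made up 7.34% in NT and 17.2%, 17.0% and 9.82% in the RT libraries. Monocytes, dendritic cells, neutrophils, lymphocytes, fibroblasts and endothelial cells were also found, but NT held only 20 neutrophils, 17 fibroblasts and 33 endothelial cells. A further cluster with both macrophage and tumor markers was left unnamed. It held 62 cells in NT and 302, 285 and 221 in the RT libraries, and 95.2%, 96.7%, 96.1% and 93.2% of them had high doublet scores. Levels are UMIs of a gene after scaling the summed UMIs of a cell type in a library to 1000000 (CPM), and intervals are exact Poisson 95% limits that cover counting error only.

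**Figure D1:**
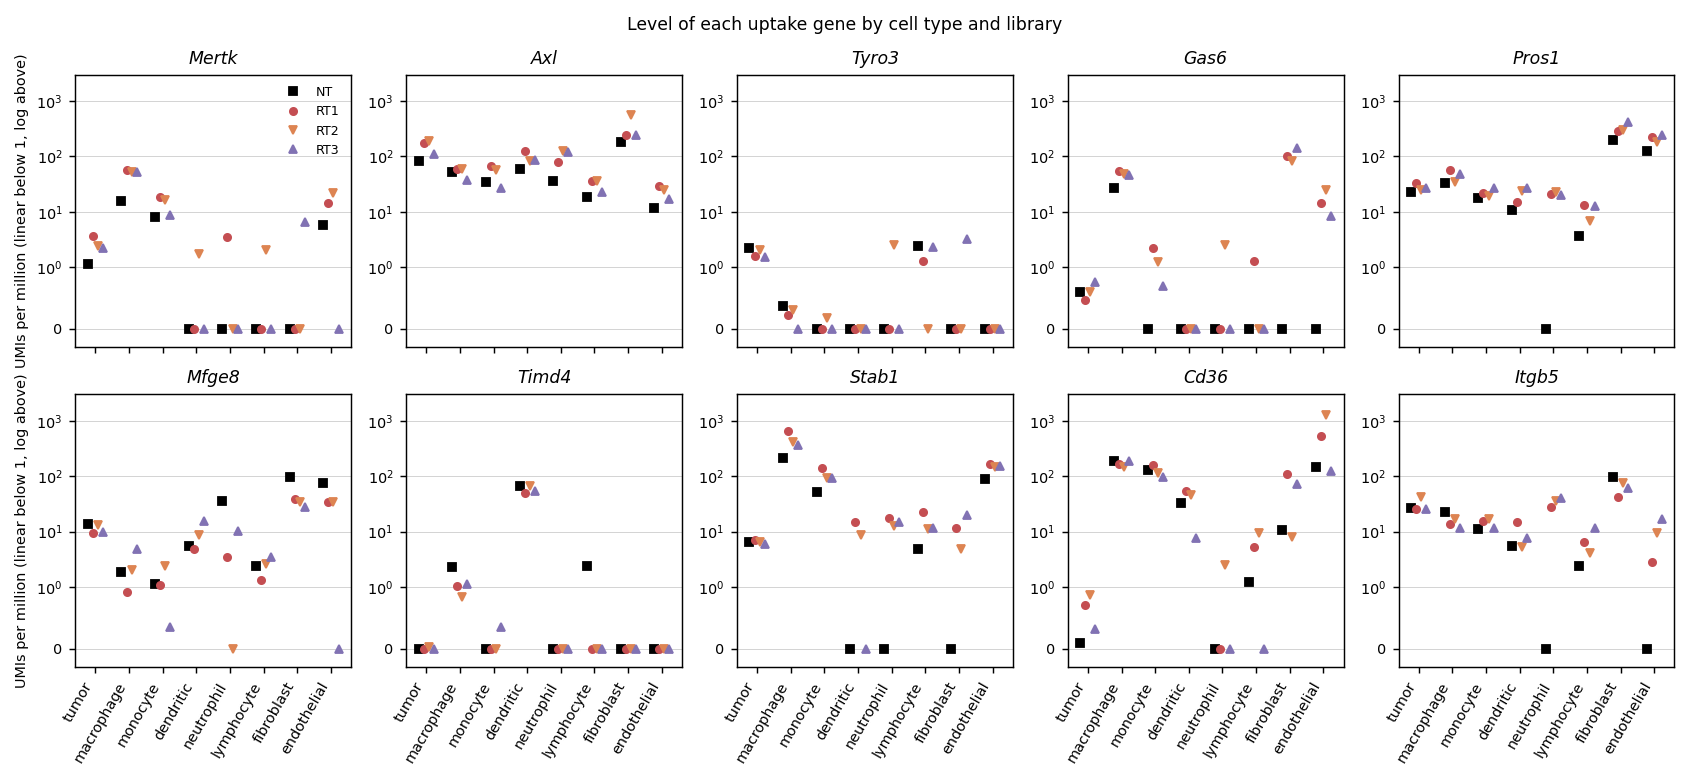
Level of each of the 10 uptake genes in 8 cell types, in CPM on an axis that is linear below 1 and logarithmic above, with 1 point for each library (NT black squares, RT1 to RT3 colored). Mertk and Stab1 were highest in macrophages, Timd4 in dendritic cells, Axl, Pros1 and Itgb5 in fibroblasts, and the mean of Cd36 in endothelial cells, where RT1 and RT2 were above the macrophages and NT and RT3 below them.

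Mertk, the TAM receptor of resident and tumor macrophages, showed the largest difference of the set between RT and NT macrophages. Its level in macrophages was 15.5 CPM in NT (41 UMIs, interval 11.1 to 21), against 57.5, 51.4 and 51.6 CPM after radiation. All 3 RT libraries lay far above the NT interval and close to each other. The mean log2 ratio to NT was 1.79 ± 0.09 (SD, n = 3), a 3.45-fold difference, with all ratios taken against the same NT library. With no test at hand, genes were sorted by size: a gene with at least 10 UMIs expected in every library met the 2-fold or the 1.5-fold rule if it differed by that much, in one direction, in each RT library. Mertk was past 2-fold upward in each, as were 2.86% of the 9229 genes with enough UMIs in macrophages. The share of macrophages with a Mertk UMI, after thinning each cell to 2000 UMIs, came to 3.45% in NT (Clopper-Pearson 95% interval 2.02 to 5.46), against 8.56%, 10.2% and 8.81% in the RT libraries. Thinning left out 239 of the NT macrophages and 969, 622 and 594 of the RT macrophages as too shallow. In lymphocytes, which should lack Mertk, the share was 0% in NT, RT1 and RT3 and 0.352% in RT2, with 0 of 100 NT cells allowing up to 3.00% at 3 counts. Without thinning the macrophage shares were 5.46% in NT and 15.1%, 20.4% and 13.1%. The median depth of macrophages was 2936.5 UMIs in NT and 2682.5, 4348 and 2414 UMIs after radiation, and that of lymphocytes 1351.5 UMIs in NT and 1356, 1917 and 1512.5 UMIs.

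In each library Mertk was lower in monocytes and tumor cells than in macrophages. Monocytes, the circulating precursors of many tumor macrophages, had 7.90 CPM in NT (7 UMIs) and 18.8, 16.5 and 8.66 CPM in the RT libraries. RT3 lay inside the NT interval of 3.18 to 16.3, and Mertk did not meet the rule there. The mean log2 ratio of 0.82 was 1.65 under a stricter cell filter and -0.59 at a clustering resolution of 1.2, where NT monocytes held 0 Mertk UMIs and the value rests on the floor of 3 UMIs set for a count of 0, so no direction is given. Tumor cells carried a trace of Mertk, 1.14 CPM in NT (73 UMIs, interval 0.897 to 1.44), against 3.63, 2.43 and 2.18 CPM in the RT group. Those values differed by at least 1.5-fold in every RT library, as did 8.98% of 13269 genes tested upward in tumor cells. C1q transcripts, made by macrophages, were present in tumor cells at 0.0582% of the macrophage level in NT and at 0.259%, 0.302% and 0.158% in the RT libraries. Mertk carried over in that proportion would give 0.149, 0.155 and 0.0815 CPM in the RT libraries. Other ways for Mertk transcripts to reach tumor cell barcodes were not tested.

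Axl, the TAM receptor that binds Gas6 with high affinity, came mostly from tumor cells in UMIs and was at its highest level in fibroblasts. Tumor cells held 95.3% of the Axl UMIs in NT and 89.3%, 87.5% and 92.4% in the RT libraries. Of all UMIs they held 92.1% in NT and 78.1%, 75.1% and 86.7%. Their Axl level was 83.2 CPM in NT (interval 80.9 to 85.4), against 172, 189 and 110 CPM after radiation. All RT libraries were above NT, by 1.05, 1.18 and 0.40 on the log2 scale, and RT3 was nearer to NT than to the other RT libraries. Because of RT3, Axl did not meet the 1.5-fold rule in tumor cells, and without RT3 the mean log2 ratio was 1.12. Marker sums of other cells also differed between these tumor cells. The 8 fibroblast markers (most abundant Col3a1) summed to 1285 CPM in NT and 2460, 2057 and 2166 CPM after radiation, and the 10 macrophage markers (C1qb) to 9.41 CPM and 48.2, 58.8 and 29.4 CPM. The 5 cycling markers (Stmn1) summed to 1793 CPM in NT against 1440, 1111 and 1431 CPM in the RT libraries. Their part in the tumor cell values of Axl was not tested. Among the 8 tumor clusters, Axl was higher in every RT library than in NT in 7 and lower in 1, beside 28.9% of all pairs of gene and tumor cluster that were higher in every RT library. The exception was the cluster led by ribosomal protein genes, at 199 CPM in NT against 167, 173 and 151 CPM. Without that cluster the mean log2 ratio in tumor cells was 1.15 and Axl met the 1.5-fold rule.

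In macrophages, Axl did not separate the groups. It stood at 51.3 CPM in NT (interval 43.0 to 60.7), against 59.0, 59.6 and 37.4 CPM in the RT group, so that NT lay between RT3 and the other RT libraries. The amount carried over from tumor cells, scaled by Rhox5, would be 3.96 CPM in NT against 8.99, 8.59 and 7.57 CPM in the RT libraries. Axl was highest in fibroblasts, with 185 CPM in NT (17 UMIs) and 241, 564 and 243 CPM after radiation, but this range overlapped that of tumor cells. The fibroblasts of the libraries also differed in markers of other cells: the 6 pericyte markers summed to 5421 CPM in the 17 NT cells and to 1172, 102 and 514 CPM in the RT libraries (most abundant Rgs5), and the 4 adipocyte markers to 0 CPM in NT and 559, 8.13 and 273 CPM (most abundant Adipoq). The part of these markers in the fibroblast values of Axl, Gas6, Pros1, Mfge8 and Itgb5 was not tested. Tyro3, the remaining TAM receptor, had most of its UMIs in tumor cells, 97.3% in NT and 95.1%, 93.8% and 95.8% in the RT libraries. Of all UMIs, tumor cells held 92.1% in NT and 78.1%, 75.1% and 86.7% in the RT libraries. The range of Tyro3 levels in tumor cells overlapped that in lymphocytes. The tumor cell level of Tyro3 was 2.26 CPM in NT (interval 1.90 to 2.66), against 1.58, 2.02 and 1.56 CPM, a mean log2 ratio of -0.40 ± 0.21 (SD, n = 3) that did not meet the rule. Macrophages had 1 Tyro3 UMI in NT.

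Gas6, the bridge that serves all TAM receptors, was higher in the macrophages of every RT library. Its level there was 26.4 CPM in NT (70 UMIs, interval 20.6 to 33.4), against 53.8, 47.1 and 46.9 CPM in the RT libraries. The mean log2 ratio was 0.90 ± 0.11 (SD, n = 3), and Gas6 passed the 1.5-fold rule, as did 7.96% of the genes tested upward in macrophages. Monocytes had no Gas6 UMI in NT, which allows up to 3.39 CPM at 3 counts. Their RT values of 2.18, 1.22 and 0.693 CPM all lay below that limit. Fibroblasts had 99.6, 81.3 and 144 CPM after radiation and no UMI in NT, where 17 cells allow up to 32.6 CPM at 3 counts. Fibroblasts supplied 4.64% and 6.49% of all Gas6 UMIs in RT1 and RT2 but 24.2% in RT3. Of the UMIs of all genes, fibroblasts held 0.336%, 0.566% and 0.720% in the RT libraries.

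Pros1, the anticoagulant protein S that also bridges to Mertk and Tyro3, had its highest levels in stromal cells, although tumor cells held most of its UMIs, 90.1% in NT and 70.5%, 66.3% and 74.7% in the RT libraries. Their share of all UMIs was higher in each library, 92.1% in NT and 78.1%, 75.1% and 86.7% in the RT libraries. The Pros1 level of tumor cells was 22.8 CPM in NT against 32.6, 24.5 and 26.6 CPM, and the rule was not met there. Fibroblasts had 196 CPM in NT (18 UMIs) and 291, 294 and 420 CPM in the RT libraries, and endothelial cells had 123 CPM (21 UMIs) and 227, 185 and 243 CPM. The ranges of these cell types overlapped each other and lay above those of all others. In endothelial cells Pros1 passed the 1.5-fold rule (mean log2 ratio 0.82 ± 0.21, SD, n = 3), as did 6.72% of 1980 genes tested upward. That call rested on 33 NT cells, and it was lost after removal of high doublet scores, under a stricter cell filter and when uptake genes were kept in the clustering. The 8 fibroblast markers in these endothelial cells summed to 193 CPM in NT and 836, 202 and 621 CPM in the RT libraries. Their part in the endothelial Pros1 values was not tested. In macrophages Pros1 was 32.8 CPM in NT (interval 26.3 to 40.5), against 56.0, 35.2 and 47.5 CPM, with RT2 inside the NT interval.

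Mfge8 and Itgb5 belong to the integrin route, in which Mfge8 links phosphatidylserine to integrin αvβ5. Mfge8 was scarce in macrophages, with 5 UMIs in NT (1.89 CPM) and 0.923, 2.04 and 4.93 CPM in the RT group. Tumor cells held 96.2% of its UMIs in NT and 92.0%, 89.9% and 92.7% in the RT libraries, at 13.6 CPM in NT (interval 12.7 to 14.5), against 9.51, 13 and 9.81 CPM. Of all UMIs, tumor cells held 92.1% in NT and 78.1%, 75.1% and 86.7% in the RT libraries. Within tumor cells Mfge8 was unevenly spread: the cluster led by ribosomal protein genes had a mean of 57.2 CPM over the 4 libraries, and the 7 others had 6.47 to 13.1 CPM. Fibroblasts had 97.8 CPM in NT from 9 UMIs (interval 44.7 to 186), above the 38.3, 34.1 and 27.8 CPM of the RT libraries, at counts too low for the rule. Endothelial cells had 76.2 CPM in NT (13 UMIs, interval 40.6 to 130) against 34.5, 34.1 and 0 CPM, also at counts too low for the rule.

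Itgb5, the β5 integrin chain, was lower in the macrophages of every RT library. The values were 22.3 CPM in NT (59 UMIs, interval 16.9 to 28.7), against 13.7, 16.5 and 11.7 CPM in the RT libraries, a mean log2 ratio of -0.69 ± 0.25 (SD, n = 3). RT2 differed by less than 1.5-fold, so the rule was not met. Tumor cells had 26.3 CPM in NT against 25.6, 41.8 and 25.7 CPM, so that RT2 alone stood apart. Fibroblasts had the highest Itgb5, with 97.8 CPM in NT against 42.1 to 74.8 CPM in the RT libraries, and the lowest of these lay just above the highest value of tumor cells.

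Timd4, a phosphatidylserine receptor known from resident macrophages, had its highest level here in dendritic cells. Dendritic cells had 65.7 CPM in NT (12 UMIs, interval 33.9 to 115), against 49.1, 65.7 and 53.9 CPM after radiation, and the RT values lay inside the NT interval. Macrophages had 2.26 CPM in NT (6 UMIs) and 1.04, 0.833 and 1.12 CPM in the RT libraries. Dendritic cells held 60% of the Timd4 UMIs in NT and 52.6%, 74.5% and 70% in the RT libraries, and macrophages 30% and 47.4%, 21.6% and 25%. Of all UMIs, dendritic cells held 0.264% in NT and 0.262%, 0.532% and 0.306%, and macrophages 3.83% and 11.2%, 12.1% and 5.24%. Among myeloid sub-clusters, the Timd4 UMIs lay mostly in a pair that differed between the groups. The Ccr7 dendritic cells of NT held 11 of them in 17 cells (222 CPM), against 0, 3 and 5 UMIs in 22, 34 and 28 cells of RT1, RT2 and RT3. The cells led by Cd209a and Retnla held 1 UMI in NT (3.4 CPM) and 10, 35 and 10 UMIs in the RT libraries (17.7, 40.5 and 33.9 CPM). These counts were too low for the rule.

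Stab1, stabilin-1, a scavenger receptor of macrophages and sinusoidal endothelium that binds phosphatidylserine, was at its highest levels in macrophages, endothelial cells and monocytes, and was higher after radiation in each. Macrophages had 217 CPM in NT (574 UMIs, interval 199 to 235), against 648, 415 and 359 CPM in the RT group, a mean log2 ratio of 1.08 ± 0.44 (SD, n = 3). RT1 was far above the other RT libraries, and all were above NT. Monocytes had 51.9 CPM in NT (46 UMIs) and 141, 90.8 and 92.2 CPM, a mean log2 ratio of 1.03 ± 0.36 (SD, n = 3). Endothelial cells had 87.9 CPM in NT (15 UMIs) and 164, 146 and 151 CPM, a mean log2 ratio of 0.80 ± 0.09 (SD, n = 3). Stab1 passed the 1.5-fold rule in macrophages, in monocytes (as did 12.6% of 6612 genes tested upward) and in endothelial cells. These calls were kept in 13 of 15 alternatives in macrophages and 8 of 9 in monocytes and endothelial cells. The call was lost in monocytes when uptake genes were kept in the clustering (0.86) and in endothelial cells without high doublet scores (0.85). Alternatives that leave out an RT library could not lose a call. In monocytes, Stab1 in proportion to their C1q would be 49.7 CPM in NT and 117, 76.3 and 44.4 CPM after radiation, and the 10 macrophage markers summed to 2772 CPM in NT and 4434, 4091 and 2931 CPM. In the same monocytes, the 6 tissue-type macrophage markers (most abundant Ccl8) summed to 111 CPM in NT and 402, 220 and 194 CPM. The 6 MHC class II markers (H2-Aa) summed to 19850 CPM in NT and 4674, 5538 and 3326 CPM. The part of these markers in the monocyte values of Stab1 was not tested. In tumor cells, which held 38.4% of the Stab1 UMIs in NT and 6.08%, 7.44% and 17.7% in the RT libraries, Stab1 did not separate the groups, with 6.44 CPM in NT against 6.97, 6.39 and 5.90 CPM. The share of macrophages with a Stab1 UMI at 2000 UMIs came to 28.6% in NT (interval 24.6 to 32.8), against 60.6%, 47.9% and 44.5% in the RT libraries, and in lymphocytes it was at most 4%.

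Cd36, a fatty acid and oxidized lipid receptor that also takes part in uptake, did not separate the groups in macrophages. Macrophages had 187 CPM in NT (interval 171 to 204), against 168, 144 and 188 CPM in the RT libraries, with RT2 and RT1 below NT and RT3 at the NT value. Monocytes had 130 CPM in NT against 160, 116 and 97.0 CPM, a mean log2 ratio of -0.09 that was -1.17 at a clustering resolution of 1.2, where other cells are named monocytes. Endothelial cells, in which Cd36 serves fatty acid uptake, spread widely, from 147 CPM in NT (25 UMIs) and 126 CPM in RT3 to 534 CPM in RT1 and 1259 CPM in RT2. The 10 macrophage markers (most abundant Apoe) followed the same order of libraries and summed to 17.6 CPM in NT endothelial cells, with 8 of them at 0, and to 71.8, 602 and 16.8 CPM after radiation. The 5 erythroid markers (Hbb-bs) were at 182 CPM in RT2 and at 0 in the other libraries. The 8 fibroblast markers (Col3a1) summed to 193 CPM in NT and 836, 202 and 621 CPM in the RT group. The part of these markers in the endothelial values of Cd36, Stab1 and Pros1 was not tested. In proportion to C1q, Cd36 carried over from macrophages to endothelial cells would be 0.224 CPM in NT and 0.262, 4.62 and 0 CPM after radiation. Stab1 in that proportion would be 0.259 CPM in NT and 1.01, 13.3 and 0 CPM. Tumor cells had 6 Cd36 UMIs in NT (0.0941 CPM) and 0.709, 0.870 and 0.312 CPM in the RT libraries, a gene with enough UMIs only through the RT libraries, so that no call is made. Carry-over in proportion to C1q would give 0.109 CPM in NT against 0.437, 0.436 and 0.297 CPM in the RT libraries, and its part was not tested.

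**Figure D2:**
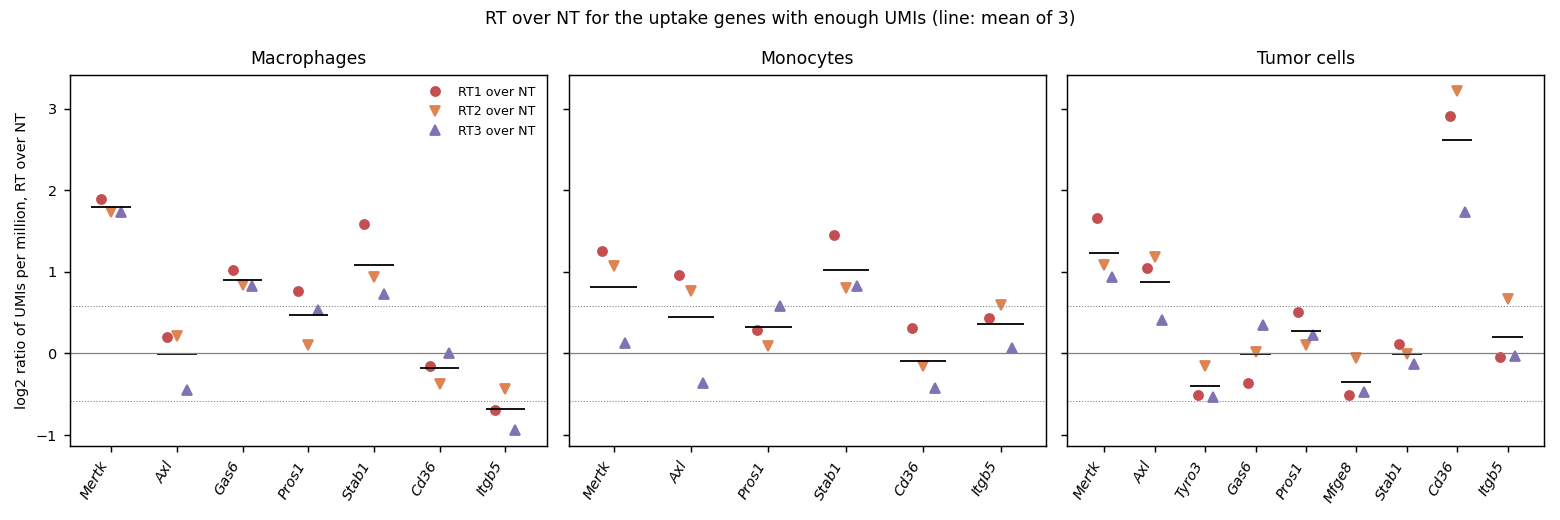
Log2 ratio of CPM in each RT library over the NT library for the uptake genes with at least 10 UMIs expected in every library, in macrophages, monocytes and tumor cells. Points are RT1 to RT3, short lines their means, and dotted lines a 1.5-fold difference, with Mertk at a mean of 1.79, Stab1 at 1.08 and Gas6 at 0.90 in macrophages.

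Of the 10 genes, 7 had enough UMIs for the rule in macrophages, and Mertk, Gas6 and Stab1 passed it at 1.5-fold, all upward, beside 7.96% of all genes tested. The median log2 ratio of the 7 was 0.47, beside -0.02 over all genes tested. The 10 genes, like the lists of other uptake genes, were chosen with earlier results of these data known, so such comparisons only describe. The expression of the 10 macrophage markers also differed between these macrophages: their summed level was 9672 CPM in NT against 15923, 17288 and 14157 CPM in the RT libraries, with C1qb the most abundant. The 7 tumor markers summed to 292 CPM in NT macrophages and 265, 268 and 313 CPM in the RT libraries. The 4 mast cell markers were at 0 in NT macrophages and at 12.6, 0.303 and 343 CPM after radiation, Cma1 being the most abundant. Sub-type markers moved as well: the 6 tissue-type macrophage markers (most abundant Ccl8) summed to 2678 CPM in NT and 9727, 6904 and 7578 CPM in the RT libraries, the 6 MHC class II markers (H2-Aa) to 16868 CPM and 2001, 4216 and 4032 CPM, and the 5 cycling markers (Stmn1) to 834 CPM and 211, 176 and 205 CPM. The interferon-induced markers (Cxcl10) summed to 5676 CPM and 2388, 2378 and 4461 CPM, the neutrophil markers (Csf3r) to 30.6 CPM and 91.3, 152 and 76.2 CPM, the fibroblast markers (Col3a1) to 57.3 CPM and 121, 105 and 157 CPM, and the monocyte markers (Plac8) to 277 CPM and 201, 350 and 537 CPM. Without the cycling sub-cluster, the mean log2 ratios of Mertk, Gas6 and Stab1 were 1.83, 0.87 and 1.04. The part of these shifts in the Mertk, Gas6 and Stab1 values was not tested. Among macrophage barcodes with no Rhox5 UMI and among those outside the shallow and mixed sub-clusters, the mean log2 ratio of Mertk was 1.75 and 2.24.

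The upstream sequences of the genes that passed the rule together in macrophages are shown because their levels moved in the same direction. They are the 250 bases before the start of each gene in RefSeq (GRCm38.p6, which is not the GRCm39 build named for these libraries). Capitals mark a GC box (GGGCGG), a PU.1 core (GAGGAA), a MAF half-site (TGCTGA) or an LXR direct repeat (a pair of AGGTCA in the same orientation, 4 bases apart), each searched on both strands. Mertk lies on the plus strand at chr2:128698665-128698914, Gas6 on the minus strand at chr8:13494536-13494785 and Stab1 on the minus strand at chr14:31168642-31168891.
Mertk: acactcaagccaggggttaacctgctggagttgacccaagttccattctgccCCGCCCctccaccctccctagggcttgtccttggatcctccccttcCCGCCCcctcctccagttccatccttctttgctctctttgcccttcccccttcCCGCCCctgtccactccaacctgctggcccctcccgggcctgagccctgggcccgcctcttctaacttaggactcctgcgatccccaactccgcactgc
Gas6: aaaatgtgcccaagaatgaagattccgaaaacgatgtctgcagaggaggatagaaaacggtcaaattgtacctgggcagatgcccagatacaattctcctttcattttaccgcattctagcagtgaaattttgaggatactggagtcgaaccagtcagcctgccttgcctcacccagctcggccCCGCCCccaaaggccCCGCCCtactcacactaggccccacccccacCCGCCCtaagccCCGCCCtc
Stab1: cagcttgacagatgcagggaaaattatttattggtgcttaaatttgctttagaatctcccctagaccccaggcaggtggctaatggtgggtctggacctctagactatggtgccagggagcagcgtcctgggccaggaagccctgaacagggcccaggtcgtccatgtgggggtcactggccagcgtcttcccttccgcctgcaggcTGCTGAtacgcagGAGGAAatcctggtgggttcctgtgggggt

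Mertk had 3 GC boxes and Gas6 had 4, all on the opposite strand, while Stab1 had none. Stab1 held a MAF half-site 43 bases and a PU.1 core 30 bases before its start. Over 32851 promoters of the same length, 32.7% held the GC box, 23.3% the PU.1 core, 16.1% the MAF half-site and 0.0152% the LXR repeat. Of the 10 uptake genes, 8 held the GC box, 3 the PU.1 core, 3 the MAF half-site and 0 the LXR repeat. No searched motif was thus common to Mertk, Gas6 and Stab1 in this window.

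Macrophages, monocytes and dendritic cells were clustered again, without the uptake genes, into 15 sub-clusters. Mertk was sparse in the NT cells of the macrophage sub-clusters. In macrophages led by Lyve1 and Cbr2, Mertk was 18.9 CPM in NT (9 UMIs) and 57.9, 51.4 and 57.6 CPM in the RT group. In macrophages led by Mmp9 and Marco, it was 8.20 CPM in NT (2 UMIs) and 69.7, 60.5 and 45.5 CPM. In macrophages led by Cxcl9 and Vcam1, it was 9.79 CPM in NT (7 UMIs) and 60.7, 51.4 and 83.3 CPM. All RT libraries were above NT in each of these, but with so few NT UMIs Mertk had enough UMIs only through the RT libraries, and no call is made. In the cluster led by Cd52 and Ftl1, RT2 was below NT, with 33.5 CPM in NT against 50.6, 29.5 and 44.9 CPM.

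Stab1 was above NT in every RT library in 8 of the 9 macrophage and monocyte sub-clusters with enough UMIs, as were 35.4% of all pairs of gene and sub-cluster. In the Lyve1 and Cbr2 macrophages, where it was highest, Stab1 was 349 CPM in NT against 851, 586 and 511 CPM in the RT libraries. Gas6 was most abundant in the Cd52 and Ftl1 cluster, with 70.3 CPM in NT (21 UMIs) and 273, 170 and 201 CPM, and nearer to NT in the Lyve1 and Cbr2 macrophages, with 44.2 CPM and 57.3, 57.1 and 56.1 CPM. The Cd52 and Ftl1 cluster was left unnamed because mast cell genes stood among its leading genes. Cma1 was there at 684 CPM and Mcpt4 at 362 CPM in RT3, and both were at 0 in the other libraries, and their part in its Gas6 values was not tested. The cluster held 13% of the NT macrophages and 3.99%, 8.26% and 9.74% of those in the RT libraries.

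Cd36 behaved differently within the sub-clusters than in macrophages as a whole. In the Lyve1 and Cbr2 macrophages it was 191 CPM in NT (91 UMIs) and 64.5, 99.1 and 75.3 CPM in the RT libraries, a mean log2 ratio of -1.29. In the Mmp9 and Marco macrophages it was 681 CPM in NT against 436, 435 and 338 CPM, and in the monocytes led by Areg and Ppbp it was 128 CPM in NT against 78.4, 78.5 and 83.2 CPM. All RT libraries were thus below NT by at least 1.5-fold in these 3 sub-clusters, of 9 macrophage and monocyte sub-clusters with enough UMIs. Over all genes and these sub-clusters, 4.44% of 37034 pairs of gene and sub-cluster met that rule downward. In the 6 others the RT libraries lay on both sides of NT. The Mmp9 and Marco macrophages made up 6.83% of NT macrophages and 13.8%, 14.5% and 16.2% of those in the RT libraries.

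Axl in the Cxcl9 and Vcam1 macrophages was 42.0 CPM in NT (30 UMIs) and 169, 110 and 109 CPM after radiation, above NT in all. In the Cd52 and Ftl1 cluster it went the other way, with 134 CPM in NT (40 UMIs) and 87.1, 30.6 and 42.2 CPM. The cells led by Cd209a and Retnla had 54.4 CPM in NT (16 UMIs) and 180, 138 and 122 CPM.

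**Figure D3:**
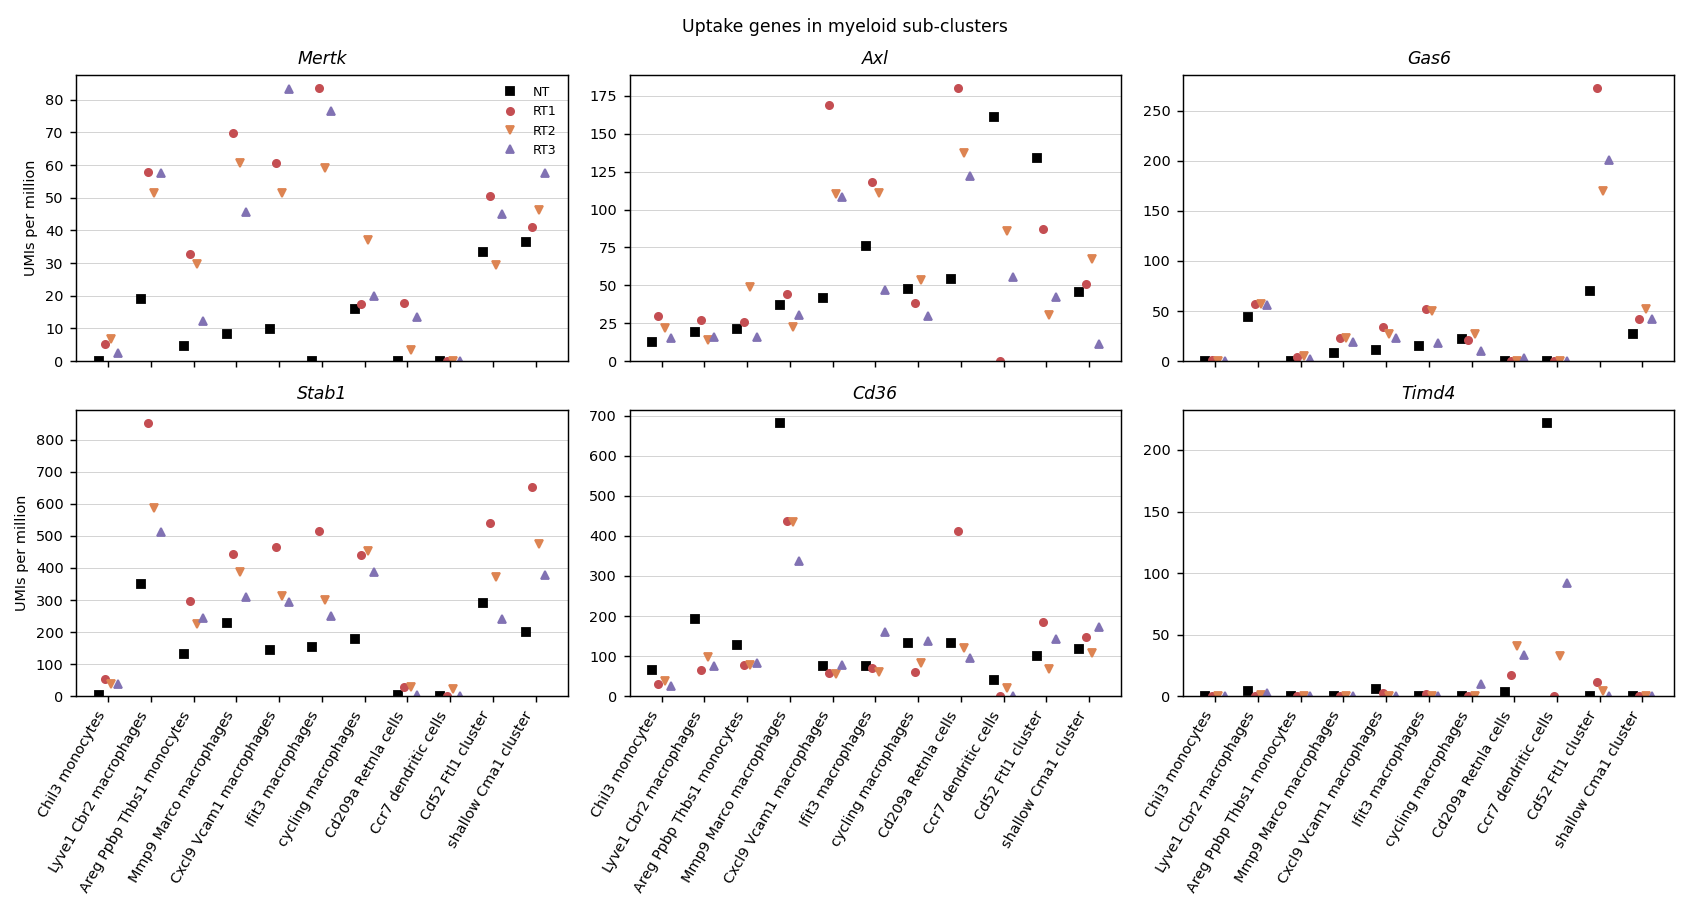
Levels of Mertk, Axl, Gas6, Stab1, Cd36 and Timd4 in 11 of the 15 myeloid sub-clusters, in CPM on linear axes, with 1 point for each library. Mertk and Stab1 in the macrophage sub-clusters lie mostly higher in RT1 to RT3 than in NT, and Cd36 in the Lyve1 Cbr2 and Mmp9 Marco macrophages lies lower.

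The mix of sub-clusters was separated from the levels within them by arithmetic. With each sub-cluster held at its NT level and only the mix of the RT libraries applied, the mean log2 ratio of Mertk in macrophages was 0.01 ± 0.19 (SD, n = 3), beside 1.79 as measured. The same value was 0.08 for Gas6 and 0.18 for Stab1, beside 0.90 and 1.08 as measured. For Cd36 the mix alone gave 0.41 ± 0.13 (SD, n = 3), beside -0.17 as measured. The NT levels behind these values rest on few UMIs in the smaller sub-clusters, as given above.

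**Figure D4:**
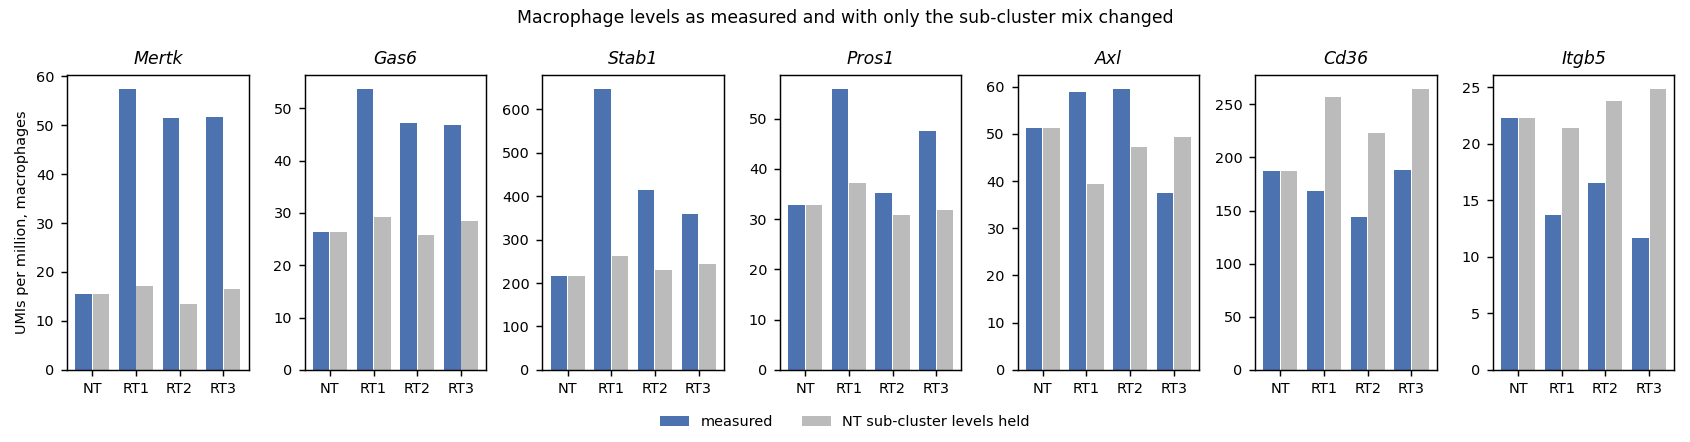
Level of 7 uptake genes in macrophages, in CPM, as measured (blue) and with every sub-cluster held at its NT level so that only the sub-cluster mix changes (grey), by library. The grey bars of Mertk stay between 13.4 and 17.1 while the measured bars of the RT libraries reach 51.4 to 57.5, and the grey bars of Cd36 exceed the measured ones in RT1 to RT3.

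Over all cells of a library, the levels also follow the cell types present. Fewer cells of a type and less RNA per cell cannot be told apart in such sums. Mertk was 1.78 CPM in NT against 10.9, 9.60 and 5.13 CPM in the RT group, with RT3 the lowest of the RT libraries, and it passed the 2-fold rule upward, as did 5.47% of 14416 genes. The mean log2 ratio was 2.19 ± 0.58 (SD, n = 3), and it was 0.64 when the NT level of each cell type was held and only cell type shares changed. For Gas6 these values were 1.94 and 0.89, for Stab1 1.83 and 0.88, and for Cd36 1.38 and 1.32. For Axl they were 0.76 and -0.06. The held levels come from the 1 NT library, and for fibroblasts from 17 cells.

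Macrophages held 33.3% of the Mertk UMIs in NT and 58.7%, 65.1% and 52.8% in the RT libraries. Tumor cells held 59.3% in NT and 25.9%, 19.0% and 36.9%. The share of Stab1 UMIs from macrophages was 53.6% in NT and 80.7%, 78.3% and 65.2%. Axl, Tyro3, Mfge8 and Itgb5 UMIs came mostly from tumor cells in every library, from 85.2% to 97.3% of the total. Of all UMIs, tumor cells held 92.1% in NT and 78.1%, 75.1% and 86.7% in the RT libraries. Macrophages held 3.83% of all UMIs in NT and 11.2%, 12.1% and 5.24% in the RT libraries.

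**Figure D5:**
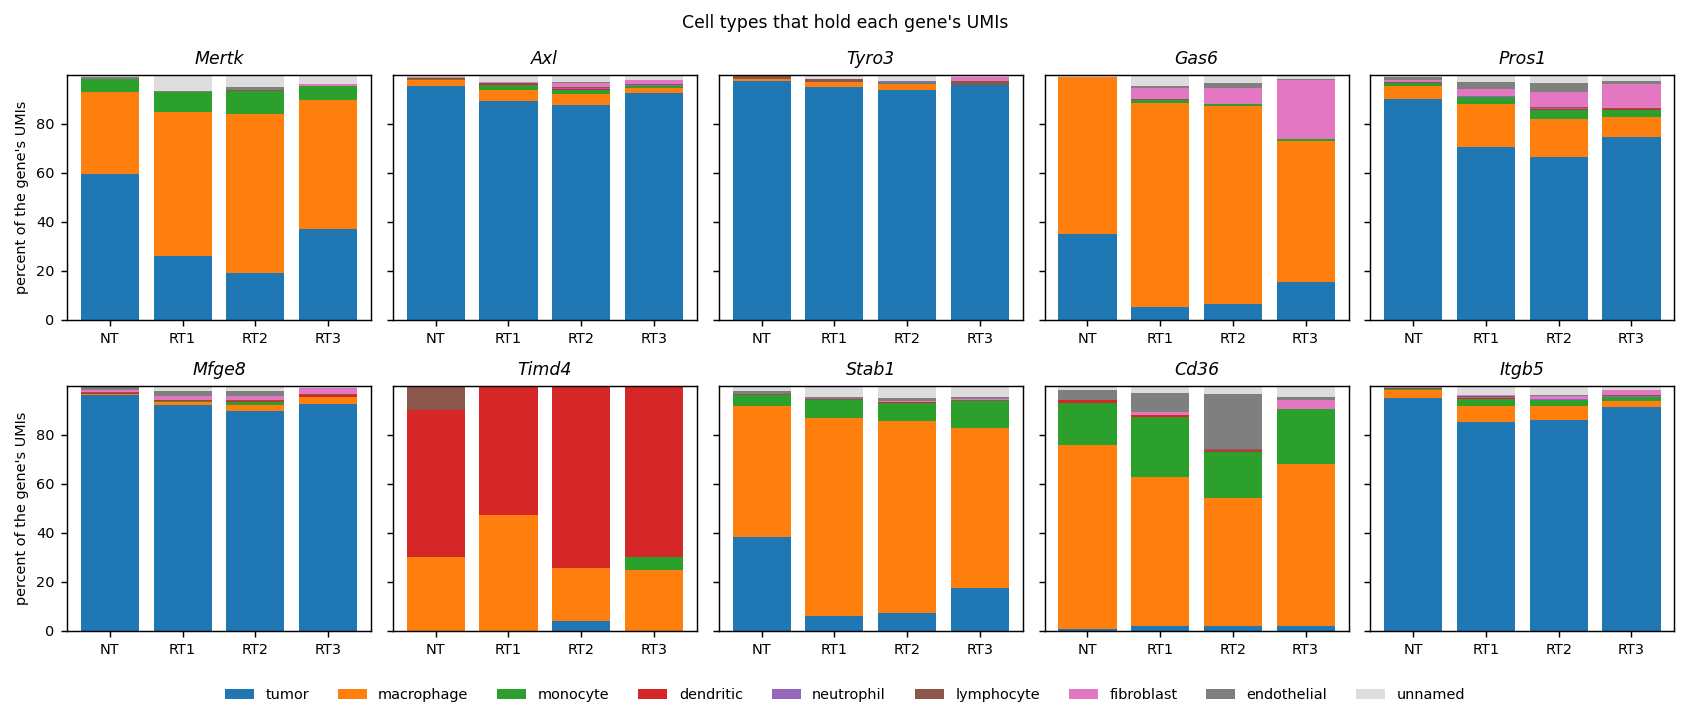
Percent of the UMIs of each uptake gene that came from each cell type, by library. Macrophages hold 33.3% of the Mertk UMIs in NT and 52.8% to 65.1% in RT1 to RT3, whereas tumor cells hold at least 85.2% of Axl, Tyro3, Mfge8 and Itgb5 in each library, and the Timd4 bars rest on 19 to 51 UMIs a library. Of all UMIs, tumor cells hold 92.1% in NT and 75.1% to 86.7% in RT1 to RT3.

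The other genes of the uptake pathway were taken from lists of receptors, bridges, engulfment machinery, digestion and lipid handling, find-me signals, do-not-eat-me signals, phosphatidylserine exposure and receptor shedding, 73 of which were shared by the libraries. In macrophages, 8 of them were higher by at least 1.5-fold in every RT library and 2 were lower, beside 7.96% and 6.58% of all genes tested. By list these were 1 of 10 other receptors, 1 of 7 other bridges, 1 of 12 machinery genes, 4 of 14 digestion genes, 2 of 7 find-me genes and 1 of 4 do-not-eat-me genes, of 62 with enough UMIs. The other receptors mostly lay the other way: 7 of the 10 were below NT in every RT library, none of them by 1.5-fold in all, where 34% of all genes tested were below, and the median log2 ratio of the list was -0.36. Trem2 was the only one of the 10 above NT in every RT library. Trem2, a lipid-sensing receptor of macrophages, was 221 CPM in NT against 355, 345 and 366 CPM in the RT libraries. C1qb, a complement bridge, was 1810 CPM in NT against 3836, 4894 and 3588 CPM. Both lay above NT in all RT libraries, by 0.68 and 1.17 on the mean log2 scale. C1qa and C1qc, in the same list as C1qb, did not meet the rule. All of these C1q genes were also among the markers used to name macrophages.

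The cholesterol exporters Abca1 and Abcg1 were higher after radiation. Abca1 was 103 CPM in NT against 302, 205 and 320 CPM in the RT libraries, and Abcg1 was 84.5 CPM in NT against 172, 168 and 205 CPM. Npc1, which moves cholesterol out of lysosomes, was 67.1 CPM in NT against 149, 104 and 146 CPM, and Rxra, a partner of lipid-sensing nuclear receptors, was 8.30 CPM in NT against 14.3, 16.6 and 16.4 CPM. Pparg, a lipid-sensing nuclear receptor, went the other way, with 17.0 CPM in NT against 6.46, 4.24 and 6.05 CPM. The remaining genes past the rule were Panx1, the channel that releases find-me nucleotides (5.66 CPM in NT against 18.8, 20.7 and 11 CPM), and Sirpa, the receptor for Cd47 (177 CPM in NT against 401, 386 and 271 CPM). Cx3cr1, the receptor for the find-me chemokine Cx3cl1, had the largest difference among the genes of these lists past the rule. It was 81.5 CPM in NT against 3.92, 4.09 and 2.47 CPM after radiation, a mean log2 ratio of -4.58 ± 0.41 (SD, n = 3). None of the genes for phosphatidylserine exposure or receptor shedding met the rule in macrophages.

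Outside the lists, the genes most alike in pattern were found by the Pearson correlation of log2(CPM + 1) over 32 points, the 8 cell types in 4 libraries. The points share libraries and cell types, so the values only describe. Mertk was most like Plau, Lgmn and Rab5c (r of 0.84, 0.83 and 0.82), and Stab1 most like P2rx7, Sat1 and Lgmn (0.85, 0.84 and 0.82). Gas6 was most like Ctsf, Glul and Agtrap (0.87, 0.87 and 0.83). Timd4 was most like H2-Eb2, Ccl22 and Sept3 (0.98, 0.98 and 0.97), of which Ccl22 was used to name dendritic cells. Cd36 was most like Lmo2, Fam43a and Ch25h (0.91, 0.88 and 0.87), and Pros1 most like Cd151, Ly6a and Iigp1 (0.92, 0.91 and 0.86). Axl was most like Gsn, Mmp3 and Htra3 (0.85, 0.82 and 0.80), and Itgb5 most like Clmp, Zcchc24 and Cped1 (0.89, 0.84 and 0.81). Mfge8 and Tyro3 had weaker matches, Spsb1, Stau1 and Angptl4 (0.81, 0.79 and 0.77) and Rps3a1, Pabpc4 and Eif5b (0.66, 0.65 and 0.64).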

How the data were processed

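Single-cell RNA-seq with the SeekOne MM 3′ kit was analysed in 4 libraries. The deposited values were raw UMI counts per gene and barcode. Per the submitters' processing notes, the authors used STAR 2.5.1b, featureCounts (Subread 1.6.4) and Cell Ranger with GRCm39, and the study's methods name the SeekOne pipeline. The RT2 table listed 18605 genes and no barcode above 12.0% mitochondrial UMIs, the others 32285 genes, so the shared 18605 genes were used.

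The members and all gene lists were chosen with earlier results of these data known. Barcodes needed 200 genes or more and no more than 20% mitochondrial UMIs. Counts were scaled to 10000 UMIs, and 2000 variable genes without the uptake genes were reduced to 30 components, aligned by library with a rewritten Harmony and clustered by Leiden (leidenalg 0.10.2, resolution 0.8). Clusters were named from marker lists by a rule settled after the clusters were seen: at least 3 markers past the middle of their range over clusters, no more markers of another class among the 10 leading genes, no second class within 0.1 in score where tumor was involved, and no cluster far below the library's median depth without own leading markers. Differences from the study may come from these rebuilt names. Scrublet scores came from scanpy 1.11.5. Its own call marked 0.0802% of NT cells, so it had not worked there, and doublets were not removed except as an alternative.

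Counts were summed per library and cell type. With 1 NT library no test was run. A gene counted as tested when its mean CPM predicted at least 10 UMIs in every library, and the rule of size asked for a log2 ratio of at least 1 (2-fold) or 0.585 (1.5-fold) in one direction in each RT library. A count of 0 was set to 3. Named genes were all 10 members, list genes past the rule in macrophages, and the 3 genes of at least 50 CPM most alike to each member. Alternatives were other size factors, cell filters, doublet removal, resolutions 0.5 and 1.2, kept uptake genes and left-out libraries.

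The software was Python 3.11.15 with numpy 2.4.6, scipy 1.17.1, pandas 2.3.3, scikit-learn 1.9.0 and matplotlib 3.10.9. The own values of 1 myeloid sub-cluster, which is counted with the others, are not reported here.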

Additional observations from a re-analysis of the deposited data

Results flagged for a closer look

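Itgb5 lay on opposite sides of NT in related cells. In macrophages it was lower than NT in all 3 RT libraries (mean log2 ratio -0.69), and in monocytes it was higher in all 3 (mean log2 ratio 0.36). The monocyte value rests on 10 UMIs in NT (11.3 CPM, interval 5.41 to 20.8), and the RT values of 15.3, 17.1 and 11.8 CPM all lay inside that interval, so the monocyte side is not beyond counting error. The difference between the cell types was not tested.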

How the results depend on the processing

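Across 30 member ratios and 321 alternative values, 301 stayed within the spread of the RT libraries and 20 moved beyond it. Means with an RT library left out are among the 301, and by their arithmetic they cannot leave that spread. Of the called ratios 0 changed sign, while 16 uncalled ones did. A call cannot be lost by leaving an RT library out, so those alternatives could not fail in the counts of kept calls below. Mertk in macrophages was past 2-fold in 15 of 15 alternatives. Its log2 ratio was 1.65 with at least 500 genes and at most 10% mitochondrial UMIs, 1.66 at resolution 1.2, 1.69 with uptake genes kept in the clustering, 1.57 with monocytes added, 2.24 without the shallow and mixed sub-clusters and 2.08 without the macrophage cluster led by Cd52. Gas6 stayed past 1.5-fold in 14 of 15 and Stab1 in 13 of 15, the exceptions being monocytes added (0.75 and 0.97) and, for Stab1, the mixed cluster counted in (1.00). Stab1 in endothelial cells lost its call without high doublet scores (0.85). Axl in macrophages moved to 0.38 and 0.40 without the shallow and mixed sub-clusters and without the Cd52 cluster, Tyro3 in tumor cells to -0.072 without the ribosomal cluster and Itgb5 in macrophages to -0.28 with the mixed cluster. Monocytes depended most on the cells named so. Under the stricter cell filter Mertk was 1.65, Stab1 1.70 and Itgb5 0.83 there, and at resolution 1.2 Mertk was -0.59 (0 NT UMIs, set to 3), Pros1 0.59, Stab1 1.88 and Cd36 -1.17. The cause was not tested.

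Counts of genes past 2-fold and 1.5-fold without a filter on low counts were 1184 and 2363 in tumor cells (558 and 1350 with it), 1986 and 5168 in macrophages (484 and 1342) and 4274 and 5849 in monocytes (362 and 1048), where resolution 1.2 gave 678 past 1.5-fold. Leaving out an RT library in turn gave 666 to 878 genes past 2-fold in tumor cells and 400 to 551 in monocytes, with the highest counts without RT3, and fewer libraries have to pass then. The other uptake genes past 1.5-fold in macrophages numbered 10, then 11 to 16 with an RT library left out (16 without RT2), 16 without the filter and 6 with the mixed cluster.

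The ratio of the share of macrophages with a UMI, RT over NT, was 2.66 for Mertk at 2000 UMIs, 2.25 at 1000 UMIs and 2.97 unthinned. Unthinned ratios were 1.86 for Gas6, 0.89 for Cd36, 0.84 for Axl and 0.67 for Itgb5. In all cells with NT levels held, log2 ratios were 0.64 for Mertk, -0.064 for Axl, -0.16 for Tyro3, 0.89 for Gas6, 0.067 for Pros1, -0.10 for Mfge8, 0.70 for Timd4 and 0.88 for Stab1. Alternatives that left out sub-clusters or clusters, or counted the mixed cluster, were chosen after seeing the data. No paired analysis was possible because NT is 1 library of pooled tumors with no replicate to match. Low NT counts limit stromal, dendritic and sub-cluster values.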
